A study of Mus musculus with 9 samples.

Results

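The collagen genes were taken as every row of the expression tables whose symbol consists of Col, a number, the letter a and a second number. This rule gave 44 of the 23747 genes listed, from Col1a1 to Col28a1. Collagens are the triple-helical proteins of the extracellular matrix. The fibrillar collagens (types I, III and V in the heart) build the tension-bearing fibres, fibril-associated collagens such as type XII decorate those fibres, and type IV collagen forms the sheet-like network of basement membranes around cardiomyocytes and capillaries. Cardiac fibroblasts are the main source of fibrillar collagen, and scar formation after myocardial injury begins with fibroblasts that start to produce it.

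Transcripts were counted by single-nucleus RNA sequencing (sNuc-seq) of heart tissue, taken below the level of the ligature per the study, from C57BL/6 mice, 8 weeks old per the study's methods, with 3 mice in each of 3 groups. Sham mice were gavaged with vehicle over 7 days and then had a needle passed around the coronary artery without a ligature. I/R mice had the same vehicle, and then 30 minutes of ligation of the left anterior descending artery and 24 hours of reperfusion. SBP mice were gavaged with Shexiang Baoxin Pill, a traditional Chinese medicine that the labels name MUSKARDIA, over the same 7 days ahead of the same ligation and reperfusion. No genetic change is named for any group. Every I/R and SBP heart was therefore sampled 24 hours after reperfusion began, and later collagen deposition lies outside the data. Nothing in the labels ties replicate 1 of one group to replicate 1 of another.

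The 9 samples held 49171 nuclei and 135423853 unique molecular identifiers (UMIs, each standing for 1 captured transcript), with 10329520 to 18205985 UMIs per sample and medians of 1540 to 2031 UMIs per nucleus. Nuclei were clustered without the collagen genes, and clusters were named from marker genes, giving 14126 fibroblast, 13456 endothelial, 10569 cardiomyocyte and 9568 myeloid nuclei. The cardiomyocyte name also covers a small cluster, of 42 nuclei before doublets were removed, that had all 8 cardiomyocyte markers but was led by smooth muscle genes such as Myh11, Lmod1 and Acta2. Schwann cells (99 nuclei), mural cells (160), B cells (335) and T cells (773) were not compared between groups here, although each sample held 30 to 207 T cells. Any pair of libraries shared 4 to 14 barcodes. I/R replicate 1 stood apart: 770 of the 817 nuclei of 1 resting-like fibroblast subcluster came from it, and it had the highest I/R value of most fibrillar collagens. Levels are given as CPM, the UMIs of a gene per 1000000 UMIs of that cell type in that mouse, without correction for gene length.

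Collagen transcripts were unevenly spread over the cell types. Fibroblasts held 68.5% of all collagen UMIs, endothelial cells 13.7%, cardiomyocytes 12.3% and myeloid cells 4.26%. Among the 4 types compared between groups, 30 of the 44 genes had their highest mean level in fibroblasts, 9 in endothelial cells, 3 in cardiomyocytes and 2 in myeloid cells. The ranges over the 9 mice did not overlap the next type for 11 of the 30 fibroblast genes, for 2 of the 9 endothelial genes and for 1 of the 3 cardiomyocyte genes. With the smaller types included, fibroblasts were highest for 25 genes, 4 of them without overlap. Mural cells were then highest for 4 genes, among them Col4a1 (463 CPM, 311 UMIs) and Col25a1 (38 UMIs), T cells for Col8a2, Col19a1 and Col6a5 (12, 1 and 1 UMIs) and B cells for Col9a3 (5 UMIs). A level needed 20 nuclei in a sample, while these UMIs are over all samples. Mural means therefore rest on only 1 sham and 1 I/R mouse, with no SBP mouse, and B cell means include only 1 I/R mouse. Schwann cells had no such sample and do not enter the order. These orders are descriptions without a test. At the low end Col10a1 had 7 UMIs in the whole series, Col9a1 had 9 and Col2a1 had 10, and 10 of the 44 genes passed the filter on low values in none of the 4 types.

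Members of the family that are neighbours in the genome or that moved together are introduced by the sequence around their start sites. Each window runs from 250 bases before the RefSeq transcription start to 50 bases from it on (build GRCm38.p6, 5′ to 3′ on the strand of the gene). Capitals mark matches on either strand to short promoter motifs. The first motif, a form of the TATA box, was TATAAA. Another, the core of the CCAAT box, was searched as those letters. The last, the GC box, was GGGCGG. Col1a2 (chr6:4505368-4505667, plus strand) and Col3a1 (chr1:45311288-45311587, plus strand) are shown because they rose in every cell type compared. Col4a1 (chr8:11312777-11313076, minus strand) and Col4a2 (chr8:11312555-11312854, plus strand) are shown because they are transcribed away from each other from starts that lie 21 bases apart, so that their windows share 78 bases.
Col1a2: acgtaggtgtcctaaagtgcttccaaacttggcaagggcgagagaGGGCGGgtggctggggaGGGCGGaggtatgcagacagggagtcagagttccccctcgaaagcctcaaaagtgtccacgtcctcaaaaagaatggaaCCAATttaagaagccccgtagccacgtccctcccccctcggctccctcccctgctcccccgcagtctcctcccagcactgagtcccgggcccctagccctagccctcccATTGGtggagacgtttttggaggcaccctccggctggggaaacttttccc
Col3a1: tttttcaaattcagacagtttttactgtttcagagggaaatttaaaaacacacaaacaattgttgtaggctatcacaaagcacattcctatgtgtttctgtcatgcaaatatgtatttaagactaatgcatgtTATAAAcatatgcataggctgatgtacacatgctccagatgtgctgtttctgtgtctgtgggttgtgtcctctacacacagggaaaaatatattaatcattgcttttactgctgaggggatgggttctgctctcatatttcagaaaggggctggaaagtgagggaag
Col4a1: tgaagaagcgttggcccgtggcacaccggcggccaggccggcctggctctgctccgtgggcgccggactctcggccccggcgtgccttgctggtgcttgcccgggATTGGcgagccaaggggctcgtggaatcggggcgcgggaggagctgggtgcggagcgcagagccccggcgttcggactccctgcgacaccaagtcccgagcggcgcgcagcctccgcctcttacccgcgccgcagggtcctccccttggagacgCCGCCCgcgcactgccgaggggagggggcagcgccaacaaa
Col4a2: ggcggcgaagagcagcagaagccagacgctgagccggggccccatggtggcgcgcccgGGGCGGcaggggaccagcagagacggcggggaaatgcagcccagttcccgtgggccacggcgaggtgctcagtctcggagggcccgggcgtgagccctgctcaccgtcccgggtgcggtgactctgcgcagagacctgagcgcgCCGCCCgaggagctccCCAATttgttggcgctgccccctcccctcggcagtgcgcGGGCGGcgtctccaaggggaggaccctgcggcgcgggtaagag

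The windows of Col4a1 and Col4a2 had a G and C content of 74.0% and 73.67%, that of Col1a2 61.0% and that of Col3a1 37.67%. Col3a1 had the only TATAAA match of the 4 windows, at position -117 from the start, and no GGGCGG match. The Col1a2 window lies inside the gene as annotated by GENCODE, which begins at 4504814, so the 2 sources place its start differently. Over all 32851 mouse windows of the table, 13.62% held TATAAA, 37.41% held CCAAT and 35.66% held GGGCGG. Windows were found for 35 of the 44 collagen genes, and of their 38 windows 5 held TATAAA, 13 held CCAAT and 23 (60.53%) held GGGCGG. No window was used for Col1a1, Col5a2, Col12a1 or Col4a3. The same head-to-head order as for Col4a1 and Col4a2 was found for Col4a3 and Col4a4 on chromosome 1, 71 bases apart, and for Col4a5 and Col4a6 on chromosome X, 1308 bases apart, while Col3a1 and Col5a2 face each other tail to tail on chromosome 1 with 24614 bases between them. A match is a description of the letters and not of a bound site.

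**Figure D1:**
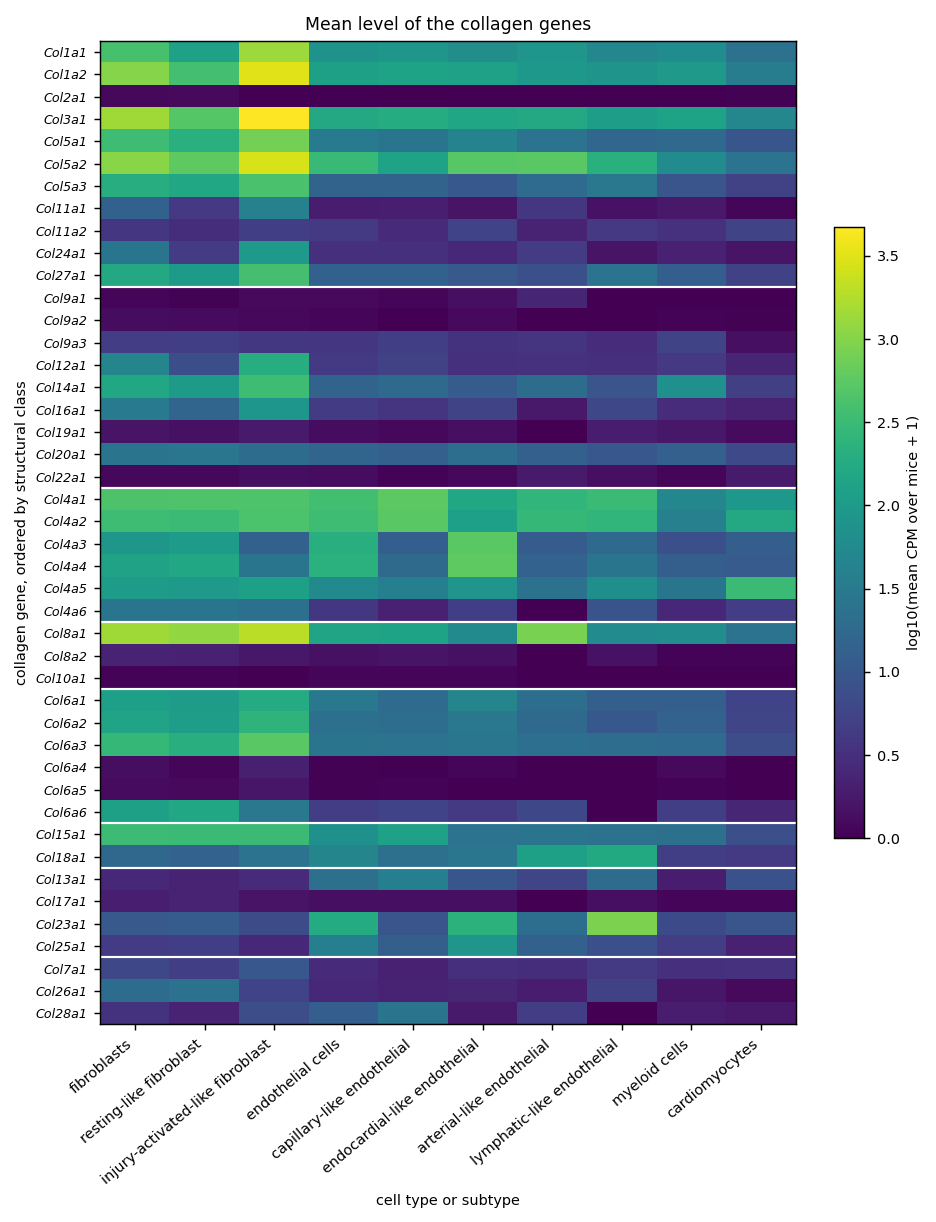
Mean level of the 44 collagen genes (rows, grouped by structural class) in fibroblasts, endothelial cells, myeloid cells, cardiomyocytes and the named fibroblast and endothelial subtypes (columns), as the color of log10(mean CPM over mice + 1). Fibroblasts have the highest mean for 30 of the 44 genes among the 4 main types, while Col23a1 stands out in endothelial cells and Col4a5 in cardiomyocytes.

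Fibroblasts were compared first, to ask how ischemia-reperfusion changed collagen transcripts in the cells that make most of them. In I/R fibroblasts 8 collagen genes rose and 1 fell against sham. The genes that rose encode the chains of fibrillar types I, III and V (Col1a1, Col1a2, Col3a1, Col5a2 and Col5a3), the rare fibrillar chain Col24a1, the fibril-associated Col12a1 and the minor Col28a1. The gene that fell was Col4a3, a chain of the specialised basement membrane network. These 9 genes were among 33 collagen genes that passed the filter on low values. Of all 13070 genes tested in fibroblasts 11.3% were called (6.48% higher and 4.82% lower), where a call needs an adjusted p from limma no higher than 0.05 and a log2 fold change beyond 0.25 in size. Collagens made up 0.602% ± 0.0651 (SD, n = 3) of fibroblast UMIs in sham mice, with 1.06% ± 0.442 for I/R and 0.881% ± 0.173 for SBP. The median log2 fold change was 0.17 over the 33 collagen genes and 0.0 over all genes.

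Col1a1 (chromosome 11, 94936224 to 94953042, GRCm38), which encodes the alpha 1 chain of type I collagen, was at 45.7, 61.5 and 75.6 CPM in the 3 sham mice, at 1045, 725 and 371 CPM in the I/R mice and at 394, 585 and 326 CPM in the SBP mice. Every injured mouse stood above every sham mouse, and the I/R and SBP ranges overlapped. The log2 fold change of I/R against sham was 3.36 (SE 0.35, limma adjusted p 0.000374). Col1a2 (chromosome 6, 4504814 to 4541544), its alpha 2 partner, was at 270, 344 and 303 CPM in sham, at 2428, 1460 and 950 CPM in I/R and at 918, 1541 and 865 CPM in SBP. It rose by a log2 fold change of 2.22 (SE 0.31, limma adjusted p 0.00131), again without overlap between I/R and sham. Col3a1 (chromosome 1, 45311538 to 45349706), the chain of type III collagen, which co-assembles with type I in compliant tissues, was at 233, 371 and 301 CPM in sham, 3479, 2303 and 1218 CPM in I/R and 1262, 2251 and 1250 CPM in SBP. Its log2 fold change was 2.77 (SE 0.36, limma adjusted p 0.00111). In these 3 genes I/R replicate 1 was the highest and I/R replicate 3 the lowest I/R mouse.

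The type V chains, which nucleate and limit the width of type I fibrils, moved in part. Col5a2 (chromosome 1, 45374321 to 45503282) was at 360, 427 and 352 CPM in sham, at 2134, 1463 and 967 CPM in I/R and at 1089, 1493 and 1038 CPM in SBP. It rose by a log2 fold change of 1.86 (SE 0.24, limma adjusted p 0.000692), with all injured mice above all sham mice. Col5a3 had a sham mean of 105 ± 7.28 CPM (SD, n = 3) and rose to 273 ± 104 CPM under I/R, with a log2 fold change of 1.22 (SE 0.24, limma adjusted p 0.00853). Its lowest I/R mouse, at 156 CPM, was above the highest sham mouse, at 110 CPM. Col5a1 was at 225, 241 and 216 CPM in sham and at 569, 460 and 222 CPM in I/R, and it was not called (log2 fold change 0.69 with SE 0.27, limma adjusted p 0.128). I/R replicate 3 lay inside the sham range.

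Col12a1 (chromosome 9, 79598991 to 79718831), whose product bridges type I fibrils to the surrounding matrix, had the smallest adjusted p of the collagens tested in fibroblasts. It was at 1.76, 6.11 and 3.63 CPM in sham, at 84.4, 91.3 and 54.1 CPM in I/R and at 48.0, 75.5 and 51.9 CPM in SBP. The log2 fold change of I/R against sham was 4.01 (SE 0.33, limma adjusted p 7.21e-05), and all 6 injured mice stood far above the sham mice. Col24a1 was at 3.08, 2.88 and 1.98 CPM in sham and at 128, 19.4 and 8.55 CPM in I/R (log2 fold change 2.96 with SE 0.81, limma adjusted p 0.0462), a spread set by I/R replicate 1. Col28a1 rested on few transcripts, with 7 UMIs in sham fibroblasts and 45 in I/R fibroblasts (log2 fold change 1.29 with SE 0.32, limma adjusted p 0.0232), and no sham mouse reached the filter on low values.

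Col4a3 (chromosome 1, 82586921 to 82722059) was at 108, 172 and 131 CPM in sham, at 103, 46.1 and 60.8 CPM in I/R and at 43.6, 54.8 and 62.5 CPM in SBP. It fell by 1.09 on the log2 scale (SE 0.27, limma adjusted p 0.0234), although I/R replicate 1 lay just under the lowest sham mouse. Its head-to-head neighbour Col4a4 was at 185 ± 72.0 CPM in sham and 104 ± 34.6 CPM in I/R and was not called (log2 fold change -0.88 with SE 0.30, limma adjusted p 0.0892). The common basement membrane chains Col4a1 and Col4a2 differed little in fibroblasts, with log2 fold changes of 0.32 (SE 0.33) and 0.17 (SE 0.39) and limma adjusted p of 0.615 and 0.842.

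Several collagens of fibroblasts lay close to the threshold. Col8a1 (chromosome 16, 57624258 to 57754737), a short-chain network collagen of vessel walls and endothelium, was at 1567, 1452 and 2837 CPM in sham, at 1451, 661 and 720 CPM in I/R and at 1086, 1731 and 1377 CPM in SBP. The highest I/R mouse was level with the lowest sham mouse, and the log2 fold change was -1.15 (SE 0.34, limma adjusted p 0.0528). Col15a1, a basement membrane proteoglycan collagen, was at 497 ± 88.2 CPM in sham and 218 CPM in I/R, where the mice ranged from 81.0 to 447 CPM (log2 fold change -1.64 with SE 0.49, limma adjusted p 0.0597), with I/R replicate 1 the highest. Col26a1 (log2 fold change -0.99, limma adjusted p 0.0537) and Col11a1 (2.29, limma adjusted p 0.065) were not called either, and Col11a1 reached 71.3 CPM in I/R replicate 1 against 9.56 and 6.65 CPM in the other I/R mice. The remaining genes tested had adjusted p of 0.0892 or more, among them the 4 beaded-filament chains Col6a1, Col6a2, Col6a3 and Col6a6, whose log2 fold changes lay between -0.27 and 0.06. Of the 33 genes, 12 had I/R and sham mice that did not overlap, against 26.8% of all genes tested.

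The 11 collagen genes not tested in fibroblasts were Col2a1, Col6a4, Col6a5, Col8a2, Col9a1, Col9a2, Col10a1, Col13a1, Col17a1, Col19a1 and Col22a1. Their mean fibroblast levels were at most 2.10 CPM in any group. The calls of Col1a1, Col1a2, Col3a1, Col5a2, Col5a3 and Col12a1 between I/R and sham did not depend on any single library. Col24a1 was no longer called without sham replicate 1, 2 or 3, I/R replicate 2 or SBP replicate 2 or 3, with limma adjusted p between 0.0515 and 0.12. Col28a1 was not called without sham replicate 1, 2 or 3 or I/R replicate 1 or 3 (adjusted p 0.0507 to 0.0745), and Col4a3 was not called without sham replicate 2 or 3 or I/R replicate 2 or 3 (adjusted p 0.0552 to 0.086). Without I/R replicate 1 the count was 11 genes, 8 of them among the 9. The count was 5 with nuclei named by marker score (Col1a1, Col1a2, Col3a1, Col5a2 and Col12a1) and 1 (Col5a2) with the mean of the deposited log values per nucleus. The cut of 0.25 was kept for that mean, which is on another scale.

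Other transcripts moved in fibroblast nuclei along with the collagens. The summed level of the 8 cardiomyocyte markers, none of them at 0, was 5778 to 7274 CPM in sham fibroblasts and 1822 to 2877 CPM in I/R fibroblasts, and 1992 to 2725 CPM in SBP fibroblasts. The 9 myeloid markers summed to 187 to 246 CPM in sham, 308 to 519 CPM in I/R and 182 to 319 CPM in SBP. Mural markers summed to 345 to 426 CPM in sham and 222 to 289 CPM in I/R, and none was at 0. Schwann markers summed to 319 to 435 CPM and 166 to 294 CPM, and B cell markers to 20.5 to 32.0 CPM and 5.80 to 12.1 CPM, each lower in I/R without overlap. Median UMIs per fibroblast nucleus were 1381 to 1929 in sham and 1829 to 2105 in I/R. Their part in the collagen results was not tested.

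**Figure D2:**
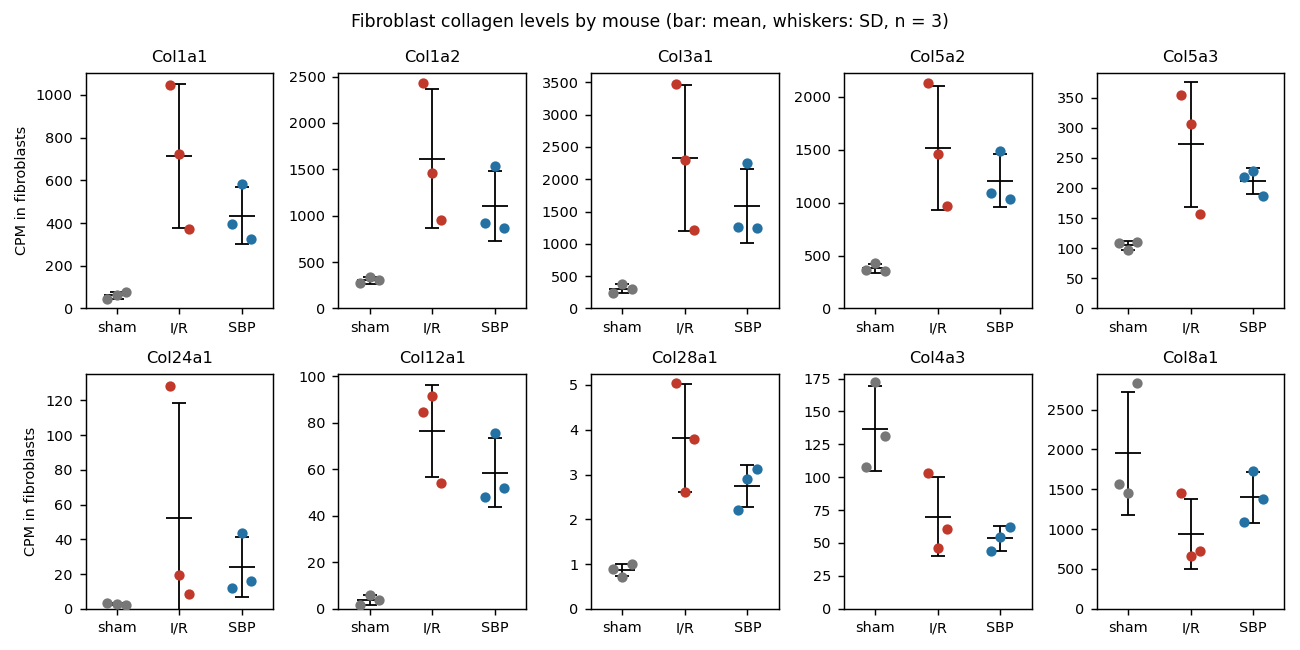
Level in CPM (vertical axes, starting at 0) of 10 collagen genes in the fibroblasts of each mouse, by group (horizontal axes), with the mean as a bar and the SD as whiskers, n = 3 mice per group. Col1a1, Col1a2, Col3a1, Col5a2, Col5a3 and Col12a1 stand above sham in every I/R and SBP mouse, Col4a3 stands below sham, and I/R replicate 1 holds the highest I/R value in Col24a1 (128 CPM).

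SBP and I/R fibroblasts were compared to ask whether pre-treatment altered this response. No collagen gene was called, limma called 0.0% of the 13070 genes, and 0 of the 33 collagen genes had an unadjusted p under 0.05 (456 of all genes did). The mean levels in SBP lay below those in I/R for Col1a1 (435 ± 134 against 714 ± 337 CPM, SD, n = 3), Col1a2 (1108 ± 376 against 1613 ± 751 CPM) and Col3a1 (1588 ± 574 against 2334 ± 1131 CPM). The log2 fold changes of SBP against I/R were -0.59 (SE 0.35) for Col1a1, -0.45 (SE 0.31) for Col1a2, -0.45 (SE 0.36) for Col3a1, -0.24 (SE 0.24) for Col5a2 and -0.34 (SE 0.33) for Col12a1. None of them was called (limma adjusted p 0.999 over all genes tested).

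Against sham, 7 of the 33 collagen genes were called in SBP fibroblasts, 6 higher and 1 lower, where 5.96% of all genes were called. They were Col12a1 (log2 fold change 3.67 with SE 0.33, limma adjusted p 0.00028), Col1a1 (2.77, SE 0.35), Col3a1 (2.32, SE 0.36), Col1a2 (1.77, SE 0.31), Col5a2 (1.61, SE 0.24), Col5a3 (0.97, SE 0.24, adjusted p 0.0397) and Col4a3 (-1.36, SE 0.27, adjusted p 0.0119). This comparison shares its sham mice with the one above. The Col5a3 call was lost without any 1 of the 3 sham or 3 SBP mice (limma adjusted p 0.0655 to 0.136), and the Col4a3 call without sham replicate 3 (0.0569) or SBP replicate 1 (0.0556). Col24a1 and Col28a1 were not called here (limma adjusted p 0.113 and 0.104).

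Clustering of the fibroblast nuclei separated 11985 resting-like nuclei, 1814 injury-activated-like nuclei and 327 unnamed nuclei. The injury-activated-like nuclei carried Tnc, Postn and the other 6 markers fixed for this state, and all 6 cycling markers. There were 0, 4 and 3 such nuclei in the sham mice, 437, 404 and 155 in the I/R mice and 293, 333 and 185 in the SBP mice. They made up 30.0%, 28.1% and 9.11% of I/R fibroblast nuclei and 17.2%, 22.5% and 9.84% of SBP fibroblast nuclei. I/R replicate 3, the lowest I/R mouse for Col1a1, Col1a2 and Col3a1, was also the I/R mouse with the fewest of them.

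Collagens made up 1.99% ± 0.151 (SD, n = 3) of the UMIs of injury-activated-like nuclei in I/R and 1.78% ± 0.118 in SBP. Resting-like nuclei had 0.603% ± 0.0623 in sham mice, with 0.564% ± 0.306 for I/R and 0.493% ± 0.0236 for SBP. The level in injury-activated-like nuclei was divided by the level in resting-like nuclei of the same mouse for 28 genes in the 6 injured mice, as a description without a test. The ratio was highest for Col12a1, with a median of 24.1 (range 14.4 to 42.6), followed by Col24a1 (16.7, 12.3 to 41.7), Col3a1 (10.2, 3.90 to 15.6), Col1a1 (8.54, 6.17 to 14.5) and Col1a2 (7.31, 5.90 to 12.1). It lay above 1 in all 6 mice for these genes and also for Col16a1 (5.54), Col27a1 (5.39), Col6a3 (4.50), Col5a2 (4.35), Col5a1 (3.81), Col14a1 (2.90) and Col8a1 (2.34). The fibril-associated Col9a3 lay lower in all mice but 1 (median 0.855).

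The opposite pattern was seen in 6 genes that were lower in injury-activated-like nuclei of all 6 mice. Median ratios were 0.160 for Col4a3, 0.173 for Col4a4, 0.174 for Col6a6, 0.174 for Col26a1, 0.549 for Col23a1 and 0.776 for Col20a1. Col4a1 and Col4a2, the ubiquitous basement membrane chains, had median ratios of 1.10 and 1.51, each above 1 in 5 of the 6 mice. Injury-activated-like nuclei held on average 34.5% of the fibroblast UMIs of I/R mice, but 79.3% of those of Col3a1, 79.3% of Col1a2, 78.3% of Col1a1, 67.5% of Col5a2, 55.6% of Col8a1 and 4.64% of Col4a3.

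**Figure D3:**
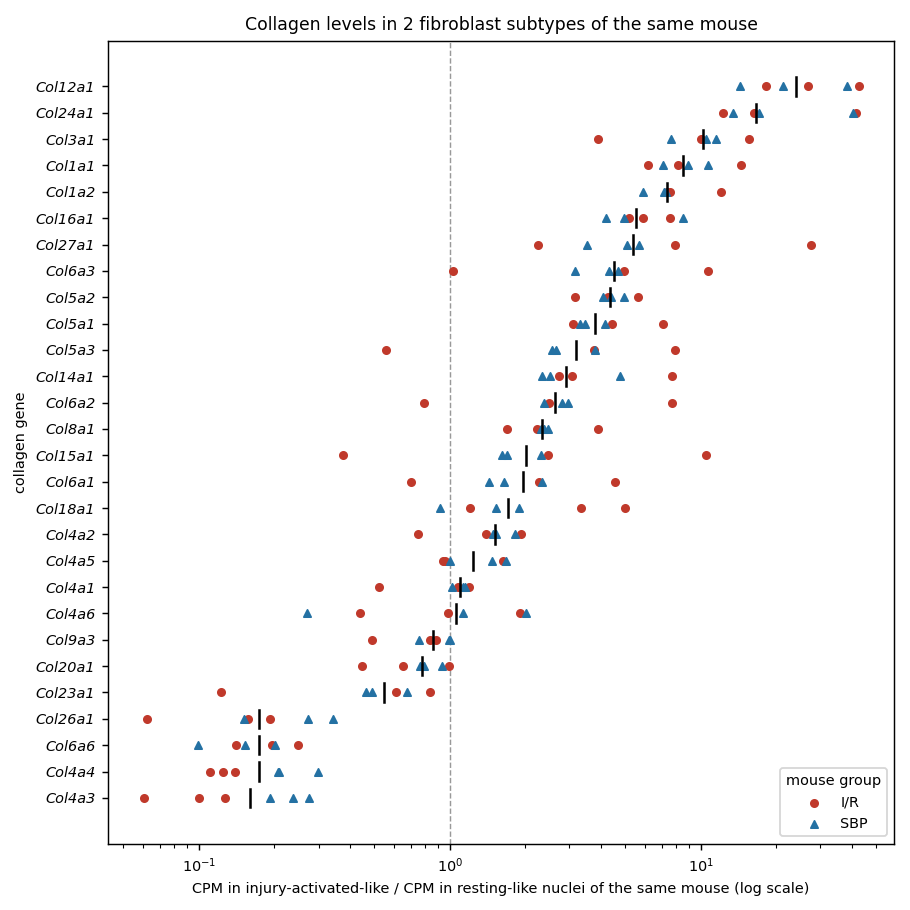
Level of 28 collagen genes in injury-activated-like nuclei divided by the level in resting-like nuclei of the same mouse (horizontal log axis), for 3 I/R mice (circles) and 3 SBP mice (triangles), with the median of the 6 as a black bar and equality as a dashed line. Col12a1 has the highest median (24.1) and Col4a3 the lowest (0.160).

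Within resting-like nuclei, 3 of the 29 collagen genes tested were called between I/R and sham, where 3.58% of 12125 genes were called. Col1a1 was at 45.4, 60.1 and 70.8 CPM in sham and at 281, 195 and 97.8 CPM in I/R (log2 fold change 1.57 with SE 0.34, limma adjusted p 0.0346). Col5a2 was at 356, 419 and 351 CPM in sham and at 1060, 656 and 501 CPM in I/R (0.89, SE 0.22, limma adjusted p 0.0475). Col8a1 was at 1580, 1479 and 2818 CPM in sham and at 1110, 454 and 456 CPM in I/R (-1.63, SE 0.37, limma adjusted p 0.0417). The groups did not overlap for these 3 genes, and in all for 4 of the 29 collagens (13.79%) against 21.0% of all genes. The 3 calls were lost with the replicate number as a block (limma adjusted p 0.061, 0.0658 and 0.0763 for Col1a1, Col5a2 and Col8a1) and with subclustering at resolution 0.4 (0.0532, 0.072 and 0.0568). Each was also lost without certain libraries. For Col1a1 these were each sham mouse, I/R replicate 2 and SBP replicate 2 (adjusted p 0.0568 to 0.119), for Col5a2 each sham and SBP mouse and I/R replicate 2 (0.0679 to 0.148), and for Col8a1 every mouse but I/R replicate 1 (0.0515 to 0.131). The resting-like name covers different subclusters by group: of the subcluster with 4303 nuclei 1191, 1408 and 1219 were from sham mice, and of the one with 6874 nuclei 266, 98 and 147 were. It also differs between I/R mice. Another subcluster, with 817 nuclei, held 770 from I/R replicate 1 and 0 from each of I/R replicates 2 and 3. I/R replicate 1 was the highest I/R mouse for the 3 called genes. The values are over all resting-like subclusters together.

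Between SBP and I/R, 0.0% of the genes were called in resting-like nuclei and 0.0% of 10235 genes in injury-activated-like nuclei. In the injury-activated-like nuclei 7 of the 26 collagen genes (and 449 of all genes) had an unadjusted limma p under 0.05 and none an adjusted p under 0.468. Col15a1 came closest, at 242, 198 and 288 CPM in I/R and 436, 341 and 425 CPM in SBP (log2 fold change 0.78, SE 0.16, limma p 0.000457, adjusted p 0.468). Col1a1 was at 1737, 1587 and 1418 CPM in I/R and at 1073, 1194 and 1094 CPM in SBP (log2 fold change -0.44 with SE 0.14, limma adjusted p 0.997). Neither passed the test over all genes. The I/R and SBP mice did not overlap for these and 6 further collagens, 8 of 26 in all, against 9.88% of all genes. Between SBP and sham 1.01% of the genes were called in resting-like nuclei, and none of them was a collagen.

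Collagen maturation needs further proteins, and 5 lists of such partners were followed in fibroblasts. Of 66 partner genes tested (73 listed), 15 were called between I/R and sham, 9 higher and 6 lower, against the 11.3% of all genes above. Among the 13 tested genes of processing and cross-linking 4 rose and 1 fell. Lox, the lysyl oxidase that cross-links fibrils, was at 6.59, 3.59 and 6.94 CPM in sham and at 52.4, 85.2 and 112 CPM in I/R (log2 fold change 3.56, limma adjusted p 7.21e-05). Loxl3, a related oxidase (1.68), Sparc, a collagen-binding matrix protein (0.98) and Adamts2, the type I procollagen N-proteinase, also rose, while Tll2, a tolloid-like protease, fell by 2.82 on the log2 scale, from a sham mean of 180 CPM to 28.5 CPM.

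Among the 21 genes of collagen modification and folding 5 rose and 1 fell. P4ha3, a subunit of the prolyl 4-hydroxylase that stabilises the helix, rose from 0.559 to 24.0 CPM (log2 fold change 3.82 with SE 0.49, limma adjusted p 0.000673), and no sham mouse reached the filter on low values. Creb3l1, a transcription factor of the secretory pathway, rose by 1.86 and the chaperone Fkbp10 by 0.88 on the log2 scale, as did P4hb and Ppib by less, and Colgalt2, a collagen galactosyltransferase, fell by 1.19. The lists of receptors, small proteoglycans and basement membrane partners had no gene that rose, where 6.48% of all genes did, and few genes were tested in each. The shares called in these lists (9.09%, 12.5% and 15.38%) lay around the 11.3% of all genes. Mrc2 (-0.84), a receptor that internalises collagen, was lower among 11 tested receptors, Lum (-1.02) among 8 tested proteoglycans, and Nid1 (-0.95) and Lamc1 (-0.61) among 13 tested basement membrane partners. Between SBP and I/R no partner gene was called, and between SBP and sham 6 of 66 were (9.09%, against 5.96% of all genes), namely Lox, P4ha3, Creb3l1, Loxl3, Sparc and Adamts2. Without sham replicate 3 or without I/R replicate 2 the count of 15 was 9.

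Endothelial cells line vessels and chambers and make much of the type IV collagen of their basement membranes. In I/R 5 of their 27 tested collagen genes rose and 1 fell, where 3.29% of 12215 genes were called (1.86% higher, 1.43% lower). The basement membrane pair Col4a1 and Col4a2 rose together with Col1a1, Col1a2 and Col3a1, and Col25a1, a transmembrane collagen, fell. The median log2 fold change was 0.43 over the 27 collagen genes and -0.03 over all genes. The 5 collagen genes with the highest mean endothelial level were Col4a1 (362 CPM), Col4a2 (336), Col5a2 (307), Col4a4 (218) and Col4a3 (200). Their UMIs are not scaled to length, so this order is of counts only.

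Col4a1 (chromosome 8, 11198423 to 11312826) was at 247, 205 and 294 CPM in sham, at 570, 583 and 381 CPM in I/R and at 336, 274 and 368 CPM in SBP. All I/R mice stood above all sham mice, and its log2 fold change was 1.05 (SE 0.21, limma adjusted p 0.0199). Col4a2 (chromosome 8, 11312805 to 11449287) was at 247, 212 and 287 CPM in sham, at 556, 556 and 347 CPM in I/R and at 312, 211 and 298 CPM in SBP, and it rose by a log2 fold change of 0.96 (SE 0.22, limma adjusted p 0.041). Both genes overlap each other on opposite strands at their first bases, and each overlaps a predicted gene on the other strand (Gm15418 and Gm15419). The study's methods name libraries of the 3′ ends of transcripts, and sharing of reads between these genes was not tested. Col25a1 was at 34.0, 73.0 and 42.7 CPM in sham and at 21.8, 23.8 and 19.3 CPM in I/R (log2 fold change -1.08 with SE 0.24, limma adjusted p 0.0295), with every I/R mouse below every sham mouse and SBP mice at 43.2, 36.1 and 40.6 CPM.

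Col1a1 was at 11.3, 16.1 and 15.2 CPM in sham endothelial cells and at 242, 115 and 74.4 CPM in I/R (log2 fold change 3.12 with SE 0.35, limma adjusted p 0.00268). Col3a1 (2.39, SE 0.31, limma adjusted p 0.00557) and Col1a2 (1.80, SE 0.29, limma adjusted p 0.0115) rose in the same mice. Beside these values stand those of fibroblast transcripts in endothelial nuclei. In the same mouse, endothelial Col1a1 was at 14.3% to 26.2% of the fibroblast level over the 9 mice (median 20.03%), Col3a1 at 13.4% and Col1a2 at 12.2%, where the medians of the 8 fibroblast markers ran from 3.18% (Abca8a) and 5.42% (Pdgfra) through 20.6% (Dcn) to 65.6% (Lum). Over the 8 markers the median was 11.1% (13.1% in sham and 11.0% in I/R). All 8 fibroblast markers were detected in endothelial nuclei, and they summed to 1248 to 1523 CPM in sham, 1009 to 1638 CPM in I/R and 1294 to 1359 CPM in SBP. This sum is weighted to the markers with the highest level. The type V chains Col5a1, Col5a2 and Col5a3 were at 8.69%, 38.1% and 7.82% (medians). What part free or misassigned fibroblast RNA had in the type I, III and V values was not tested.

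Col1a1 and Col3a1 were called in endothelial cells under every omission of a single library, and Col1a2 was not called without sham replicate 3 (limma adjusted p 0.0536). Col4a1 was not called without sham replicate 2 (0.0765) or I/R replicate 2 (0.0814). The Col4a2 call was lost without sham replicate 1, 2 or 3, I/R replicate 1 or 2 or SBP replicate 3 (adjusted p 0.0614 to 0.151), and that of Col25a1 without sham replicate 2 or 3 or any 1 I/R mouse (0.0521 to 0.111). The count of 6 genes was 3 without sham replicate 2, sham replicate 3 or I/R replicate 2. Col18a1, the basement membrane collagen that yields endostatin, was at 19.3, 25.5 and 13.1 CPM in sham and at 89.5, 94.4 and 22.5 CPM in I/R and was not called (log2 fold change 1.60 with SE 0.48, limma adjusted p 0.112).

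Comparing SBP with I/R, limma called 0.0% of endothelial genes, while 6 of the 27 collagen genes (and 625 of all genes) had an unadjusted p under 0.05. They were Col4a1 (log2 fold change -0.62, SE 0.21), Col4a2 (-0.80, SE 0.22), Col1a1 (-0.91, SE 0.35), Col3a1 (-0.73, SE 0.31), Col1a2 (-0.67, SE 0.29) and Col25a1 (0.87, SE 0.24), each with a limma adjusted p of 0.939. SBP and I/R mice did not overlap for Col4a1, Col4a2 and Col25a1, 3 of 27 collagens (11.11%), which is near the 9.25% of all genes. Against sham, 3 collagen genes were called in SBP, where 2.23% of all genes were, namely Col1a1 (2.21, SE 0.35, limma adjusted p 0.0123), Col3a1 (1.66, SE 0.31, adjusted p 0.0255) and Col5a3 (1.10, SE 0.26, adjusted p 0.0499). Col1a1 lost its call without sham replicate 3 (adjusted p 0.065), Col3a1 without any 1 sham or SBP mouse (0.0605 to 0.101) and Col5a3 without any library but I/R replicate 3 (0.0502 to 0.201). The count was 0 without sham replicate 3, 1 without sham replicate 1 or any 1 SBP mouse, 5 without I/R replicate 1 and 6 without I/R replicate 3.

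The response of fibroblasts was then set against that of endothelial cells of the same mice. The difference between their I/R effects was called in 0.493% of 11764 genes and in no collagen gene. The smallest adjusted p were those of Col5a2, whose log2 fold change was 1.86 in fibroblasts and 0.59 in endothelial cells (difference 1.26, SE 0.28, limma adjusted p 0.0758), and of Col15a1 (-1.64 and -0.11, difference -1.53, SE 0.34, adjusted p 0.0758). The difference was 0.38 (SE 0.24, limma adjusted p 0.485) for Col3a1. Endothelial values of Col1a1, Col1a2 and Col3a1 may include fibroblast RNA of the same mouse, which would shrink this difference. An absent call therefore does not show that the 2 cell types responded alike, and the part of such RNA was not tested.

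**Figure D4:**
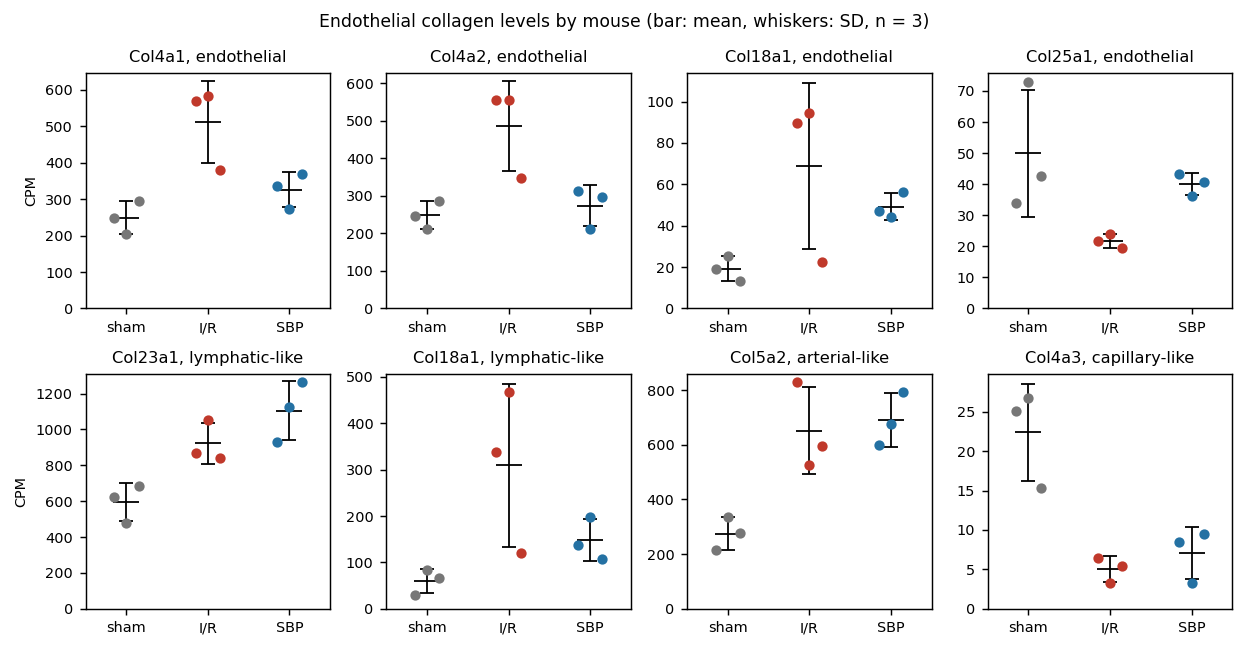
Level in CPM (vertical axes, starting at 0) of 4 collagen genes in all endothelial cells of each mouse and of 4 genes in single endothelial subtypes, by group, with the mean as a bar and the SD as whiskers, n = 3. Col4a1 and Col4a2 stand above sham in all 3 I/R mice, Col25a1 stands below it, and Col23a1 in lymphatic-like nuclei is above sham in all 6 injured mice.

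Endothelial subtypes differed in the collagens they carried, and these levels are descriptions. Endocardial-like nuclei (3802) had Col4a3 at a mean of 540 CPM and Col4a4 at 576 CPM, 31.4 and 22.4 times the mean of the next subtype, without overlap over the 9 mice. This head-to-head pair thus had its endothelial transcripts mostly in the chamber lining. Col25a1 (82.2 CPM, 6.34 times the next subtype) and Col6a1 (45.6 CPM, 2.24 times) were highest there too, with overlapping ranges. Lymphatic-like nuclei (860) had Col23a1, a transmembrane collagen, at 875 CPM, 3.79 times the next subtype, and arterial-like nuclei (818) had Col8a1 at 850 CPM, 6.37 times the next, both without overlap. Capillary-like nuclei (7299) were highest for Col15a1 (126 CPM, 5.12 times) and Col28a1 (24.8 CPM, 6.73 times), with overlapping ranges.

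Within capillary-like nuclei 7 of 24 collagen genes were called between I/R and sham, where 3.6% of 10170 genes were. At a finer resolution (0.4) the capillary-like nuclei of the groups lay in different subclusters, one with 32, 5 and 63 sham and 482, 532 and 804 I/R nuclei and one with 450, 979 and 854 sham and 102, 4 and 36 I/R nuclei. There 5 collagens were called in I/R, all among the 7. Col4a1 was at 407, 319 and 389 CPM in sham and at 888, 902 and 564 CPM in I/R (log2 fold change 1.10 with SE 0.20, limma adjusted p 0.00669), and its call held without any 1 library. Col4a3 was at 25.1, 26.8 and 15.3 CPM in sham and at 6.46, 3.26 and 5.36 CPM in I/R (-1.91, SE 0.44, limma adjusted p 0.0271), and was not called without sham replicate 1 (0.121) or I/R replicate 2 (0.112). No I/R mouse reached the filter on low values for Col4a3, and without sham replicate 2 or 3 the gene was not tested. The other 5 were Col1a1 (3.70), Col3a1 (2.76), Col1a2 (2.44), Col5a3 (1.55) and Col5a1 (1.41), all higher in I/R. No sham mouse reached the filter for Col5a3. Col5a1 and Col5a3 each lost the call without any 1 sham mouse, I/R replicate 1 or I/R replicate 2 (limma adjusted p 0.0583 to 0.168).

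In SBP against sham 5 collagen genes were called in capillary-like nuclei (1.99% of all genes), namely Col1a1 (2.80), Col3a1 (2.14), Col1a2 (1.79), Col5a3 (1.59) and Col5a2 (1.37). Of these 5, Col3a1 was called whichever library was left out. Col1a1 was lost without SBP replicate 1 (limma adjusted p 0.0525) or 2 (0.0556), Col1a2 without sham replicate 1 (0.0523), Col5a3 without any 1 sham or SBP mouse (0.0772 to 0.184), and Col5a2 without sham replicate 1 or 3, I/R replicate 2 or any 1 SBP mouse (0.0579 to 0.179). Between SBP and I/R 0.0% of the genes were called.

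In lymphatic-like nuclei 6 of 10 collagen genes were called between I/R and sham (3.7% of 5055 genes). Col18a1 was at 30.7, 83.5 and 65.3 CPM in sham and at 338, 468 and 120 CPM in I/R (log2 fold change 2.30 with SE 0.46, limma adjusted p 0.0137), without overlap. Col4a2 was at 200, 102 and 220 CPM in sham and at 365, 464 and 382 CPM in I/R (1.32, SE 0.26, limma adjusted p 0.00391). Col23a1 was at 624, 478 and 686 CPM in sham, at 868, 1055 and 843 CPM in I/R and at 931, 1123 and 1263 CPM in SBP, with all injured mice above all sham mice. It rose by log2 fold changes of 0.68 in I/R (SE 0.18, limma adjusted p 0.0304) and 0.97 in SBP (SE 0.18, adjusted p 0.00259). Col3a1 (3.11), Col1a1 (2.99) and Col1a2 (1.93) rose in I/R as well, and no sham mouse reached the filter for these 3 genes.

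Among these lymphatic calls, Col18a1 was lost without sham replicate 1 (limma adjusted p 0.0599) or 3 (0.0723), Col23a1 in I/R without sham replicate 2 (0.144) or I/R replicate 2 (0.163), Col1a1 without I/R replicate 1 (0.118) and Col1a2 without sham replicate 2 (0.0512) or I/R replicate 1 (0.0628). In SBP against sham Col23a1, Col3a1 (2.41) and Col1a1 (2.33) were called, where 1.94% of all genes were, and Col1a1 was lost without sham replicate 3, I/R replicate 1 or 2 or any 1 SBP mouse (0.0596 to 0.189). Between SBP and I/R 0.0198% of the genes were called, none a collagen.

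In arterial-like nuclei 2 of 8 collagen genes were called in I/R (2.03% of 3505 genes) and 1 in SBP against sham (1.08%). Col5a2 was at 214, 334 and 276 CPM in sham, at 830, 526 and 596 CPM in I/R and at 598, 678 and 794 CPM in SBP, so that sham and injured mice did not overlap. Its log2 fold changes were 1.33 in I/R (SE 0.24, limma adjusted p 0.00805) and 1.45 in SBP (SE 0.24, adjusted p 0.00415), the second lost without SBP replicate 3 (0.0609). Col3a1 rose by 1.81 in I/R (SE 0.40, limma adjusted p 0.0228), a call lost without sham replicate 2 or 3 or I/R replicate 1 or 2 (0.0698 to 0.105). Between SBP and I/R 0.0% of arterial-like genes were called.

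In endocardial-like nuclei 2 of 21 collagen genes, Col1a1 (2.84, SE 0.40, limma adjusted p 0.0149) and Col3a1 (2.02, SE 0.36, adjusted p 0.0404), were called in I/R (0.545% of 9726 genes), none in SBP against sham (0.504%) and none between SBP and I/R (0.0%). Col1a1 was lost without sham replicate 2 or 3 or I/R replicate 2 (adjusted p 0.0598 to 0.0759) and Col3a1 without any 1 sham mouse, I/R replicate 2 or SBP replicate 1 or 3 (0.0643 to 0.137). Endocardial Col4a3 was at 842, 588 and 867 CPM in sham, at 922, 189 and 383 CPM in I/R and at 219, 548 and 301 CPM in SBP, and it was not called in any contrast. The type I, III and V values of the subtypes carry the same limit as those of all endothelial cells.

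In myeloid cells, which are macrophages and other leukocytes, 6 of 20 tested collagen genes rose in I/R, where 17.7% of 10898 genes were called. Col1a1 was at 11.7, 15.6 and 12.97 CPM in sham and at 193, 95.6 and 62.5 CPM in I/R (log2 fold change 2.96 with SE 0.36, limma adjusted p 0.000467). Col3a1 (2.34), Col1a2 (2.17), Col5a3 (1.60), Col5a2 (1.36) and Col5a1 (1.15) rose too. Col5a3 had no sham mouse at the filter on low values. The myeloid nuclei of the groups lay only in part in the same clusters. The largest (4831 nuclei) held 5, 12 and 12 sham nuclei and 1734, 928 and 456 I/R nuclei. The next (4178 nuclei) held both groups, with 365, 654 and 762 sham nuclei and 431, 380 and 507 I/R nuclei. Col5a1 was lost without any library but I/R replicate 3 and SBP replicate 3 (limma adjusted p 0.0529 to 0.136), and Col5a2 without sham replicate 1 (0.0633) or 3 (0.0626).

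The 5 collagens with the highest mean myeloid level were Col3a1 (136 CPM), Col1a2 (93.1), Col14a1 (68.0), Col8a1 (61.5) and Col1a1 (61.1). Myeloid Col1a1 was at 16.8% of the fibroblast level of the same mouse (median), and Col3a1 at 10.3%. Col5a1, Col5a2 and Col5a3 were at 4.95%, 5.51% and 4.17%. The medians of the 8 fibroblast markers ran from 2.36% (Abca8a) and 4.16% (Pdgfra) through 11.9% (Dcn) to 31.9% (Gsn). These markers, none at 0, summed to 1060 to 1278 CPM in sham and 634 to 1058 CPM in I/R, a sum weighted to the markers with the highest level. As a percent of the fibroblast level, the median over the 8 markers was 9.95% in sham and 9.48% in I/R. Their part in the result was not tested. In SBP 3 collagens were called against sham (12.5% of all genes), Col1a1 (1.92), Col3a1 (1.83) and Col1a2 (1.499), the last lost without SBP replicate 2 (limma adjusted p 0.0544). None was called against I/R (0.0% of all genes), where 1 collagen, Col1a1, had an unadjusted limma p under 0.05 (411 of all genes).

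Cardiomyocytes, the contractile cells, are wrapped in a basement membrane, and their collagens with the highest mean level were Col4a5 (323 CPM), Col4a2 (162), Col4a1 (89.1), Col3a1 (48.6) and Col1a2 (33.4). Col4a5 (chromosome X, 141475385 to 141689234), a chain of the same specialised type IV network as Col4a3, was at 254, 239 and 290 CPM in sham, at 300, 419 and 347 CPM in I/R and at 391.7, 357 and 313 CPM in SBP. Its mean was 3.18 times that of fibroblasts, without overlap over the 9 mice. It was not called in I/R (log2 fold change 0.42 with SE 0.19, limma adjusted p 0.351). In all, 3 collagens were called between I/R and sham, Col1a1 (3.09, SE 0.39, limma adjusted p 0.00728), Col3a1 (2.37, SE 0.29, adjusted p 0.00585) and Col1a2 (1.87, SE 0.29, adjusted p 0.0162), of 29 tested, where 0.799% of 13018 genes were called.

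The cardiomyocyte nuclei of the groups lay mostly in different clusters. One of 5276 nuclei held 1235, 1386 and 1337 sham and 850, 2 and 58 I/R nuclei, and one of 5268 held 95, 41 and 157 sham and 221, 943 and 1186 I/R nuclei. Cardiomyocyte Col1a1 was at 1.84, 4.71 and 4.77 CPM in sham and at 61.8, 42.0 and 20.9 CPM in I/R. It was at 5.72% of the fibroblast level of the same mouse (median), and Col3a1 at 3.81%. The medians of the 8 fibroblast markers there ran from 1.01% (Abca8a) and 1.57% (Pdgfra) through 4.57% (Dcn) to 41.4% (Lama2). The 8 fibroblast markers, none at 0, summed to 1660 to 2057 CPM in sham and 1050 to 1823 CPM in I/R, a sum weighted to the markers with the highest level. As a percent of the fibroblast level, the median over the 8 markers was 4.89% in sham and 9.51% in I/R. The part of these markers in the result was not tested. The Col1a2 call was lost without any 1 sham mouse or I/R replicate 2 (limma adjusted p 0.0531 to 0.104), and the count of 3 was 6 without I/R replicate 1 and 5 without I/R replicate 3. No collagen was called between SBP and I/R (0.0% of all genes, with 2 collagens and 264 of all genes at an unadjusted limma p under 0.05) or between SBP and sham (0.0768%, with 11 collagens and 1721 of all genes at an unadjusted p under 0.05), although Col1a1 and Col3a1 came close in the latter (log2 fold changes 2.34 and 1.82, limma adjusted p 0.0536 for both). With the small cluster led by smooth muscle genes left out, a choice made after seeing the data, 4 collagens were called in I/R, the 3 among them, and 1 in SBP against sham. The latter count was 3 without I/R replicate 1 or 3 and 2 without I/R replicate 2.

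**Figure D5:**
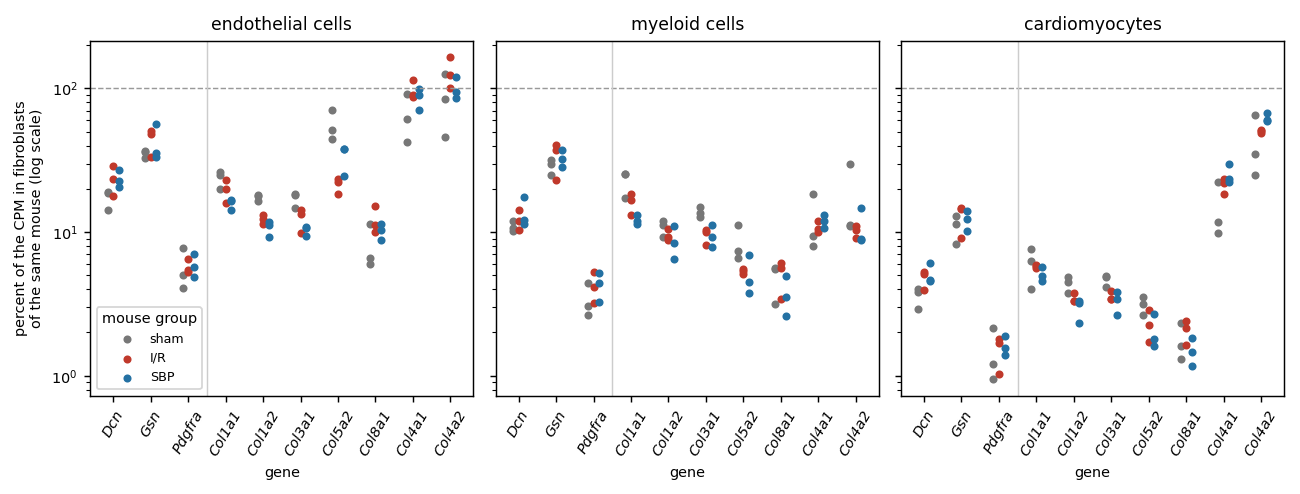
Level of 3 fibroblast markers (left of the grey line) and 7 collagen genes in endothelial cells, myeloid cells and cardiomyocytes as a percent of the level in fibroblasts of the same mouse (vertical log axis, 100% dashed), with 1 point per mouse colored by group. Col1a1 in endothelial cells lies at 14.3% to 26.2%, while Col4a2 there lies at 46.1% to 165.7%. The medians of all 8 fibroblast markers in endothelial cells, 3 of which are shown, run from 3.18% to 65.6%.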

How the data were processed

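Per the labels, the authors made 10x libraries of nuclei from frozen heart tissue, and the submitters' processing notes name Cell Ranger 4.0, STAR, GRCm38 and Seurat 3.2.0. The study's methods name other versions of Cell Ranger and Seurat, and describe down-sampling between samples and filters on genes and mitochondrial UMIs per nucleus. The deposited values cover fewer nuclei (49171) than the study reports after quality control, and the fewest genes in a nucleus were 405. The deposited values are natural log values, ln(1 + 10000 × UMI / total UMIs of the nucleus), from which whole UMIs were recovered (within 0.1 UMI). Nuclei were clustered without collagen genes (Scanpy 1.11.5, 2000 variable genes, 30 components, 20 neighbours, Leiden resolution 0.3; leidenalg 0.10.2) and named from fixed markers. The doublet caller marked 85 nuclei (0.173%), too few to have worked. UMIs were summed per sample and type (at least 20 nuclei) and log2(CPM + 1) was tested with limma 3.58.1 (R 4.3.3, trend and robust options, all 3 groups in 1 fit) with Benjamini-Hochberg adjustment over all genes tested. Genes needed the CPM of 10 UMIs in the median library in at least 3 samples and 15 UMIs in total. Calls needed an adjusted p no higher than 0.05 and a log2 fold change beyond 0.25 in size. Fold changes on this scale understate those of low genes. The script was tested on simulated data. Named genes were every called collagen, every tested collagen of fibroblasts (by name or count), the 5 with the highest mean level in each other type, those of a subtype at 2 times the next subtype or more, and in each partner list the called genes, at most 4 with values. The members and lists were chosen with earlier results of these data known. Nothing in the labels says whether replicates came from separate preparations, so p-values measure the spread between these samples. Coordinates are from GENCODE vM21 (GRCm38) and start-site windows from RefSeq.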

Additional observations from a re-analysis of the deposited data

Results flagged for a closer look

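T cells (773 nuclei, 30 to 207 per sample) were not among the cell types compared between groups, and 2 collagen genes there had every I/R mouse above every sham mouse. Col3a1 was at 88.4, 45.4 and 25.5 CPM in sham T cells, at 660, 302 and 266 CPM in I/R (mean 409 CPM) and at 173, 310 and 105 CPM in SBP, on 260 UMIs. Col4a1 was at 53.1, 27.3 and 51.0 CPM in sham, at 104, 101 and 83.0 CPM in I/R (mean 96.0 CPM) and at 124, 48.6 and 21.1 CPM in SBP, on 62 UMIs. Both were chosen from 18 collagen genes with at least 10 UMIs in T cells, and of all 9945 such genes 6.26% had every I/R mouse above every sham mouse. Neither difference was tested, and the part of free fibroblast RNA was not tested.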

How the results depend on the processing

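Of 1285 recalculations of the 66 gene calls, 1045 kept direction and call, 240 kept the direction without the call and 0 reversed, and 9 calls passed every one. The mean of the deposited log values per nucleus is on another scale, and the cut of 0.25 was kept for it. There Col12a1 in I/R fibroblasts was lost by size alone (0.193, limma adjusted p 0.0209). This mean lost most (49 of 66). With it the collagen counts in I/R were 1 in fibroblasts (from 9), 2 in endothelial cells (from 6) and 0 in cardiomyocytes (from 3), the partner count was 3 (from 15), the endothelial-subtype count 14 (from 26) and the fibroblast-subtype count 0 (from 3), and in SBP against sham 0 in fibroblasts, endothelial and myeloid cells. Fitting 2 groups at a time gave partner count 9, SBP against sham 11 in fibroblasts (from 7), 7 in endothelial cells (from 3), 5 in myeloid cells (from 3) and 5 in cardiomyocytes (from 0), and fibroblast subtypes 5. Naming by marker score gave 5 in I/R fibroblasts and 5 in SBP myeloid cells. For SBP cardiomyocytes no filter gave 2, a pseudocount of 0.25 gave 2, keeping doublets 2, removing the expected doublets 1, keeping collagens in the clustering 1, and leaving out the nuclei led by smooth muscle genes, chosen after seeing the data, 1. Resolution 0.4 gave 0 for fibroblast subtypes, and a pseudocount of 5 gave 3 for the fibroblast-endothelial difference (from 0). The collagen share of UMIs moved in SBP fibroblasts from 0.881% to 0.698% as a mean over nuclei, in myeloid cells to 0.143% (I/R) and 0.0956% (SBP) by marker score, and in sham cardiomyocytes from 0.0625% to 0.0606% with collagens kept, 0.0713% by marker score and 0.065% as a mean over nuclei. Leaving out 1 library gave ranges of 6 to 11 (fibroblasts), 3 to 7 (endothelial), 4 to 7 (myeloid) and 2 to 6 (cardiomyocytes) in I/R, 5 to 10, 0 to 6, 2 to 5 and 0 to 3 in SBP against sham, 0 to 0 between SBP and I/R and for the fibroblast-endothelial difference, 18 to 35 for endothelial subtypes, 0 to 10 for fibroblast subtypes and 9 to 16 for partners. Mean correlations between samples of the same replicate number were below 0 for replicates 1 and 2 in the 4 types, where the lowest pair was at -0.311. For replicate 3 they were 0.104 to 0.2, with the lowest pair at 0.032. With 1 sample per group and number, these values do not decide whether replicate numbers pair the samples. A replicate block gave 8 in fibroblasts and 5 in endothelial cells in I/R, 0 for fibroblast subtypes, and lost 8 of the 66 calls. Power was not measured, and genes such as Col28a1 rest on few UMIs. The cause of these moves was not tested.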
